A study of Sus scrofa with 6 samples.

Results

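The FOXO factors and muscle ubiquitin ligases examined here are 10 genes: FOXO1, FOXO3, FOXO4, FBXO32, TRIM63, TRIM54, TRIM55, MDM2, STUB1 and NEDD4. They were taken by gene symbol from a table of 13288 genes, which gave 9 of the 10. The table has a row for FOXO3 without a symbol, and this row (ENSSSCG00000004387) was identified by its Ensembl identifier, so all 10 genes were analysed. The positions of all 10 overlapped those of the same genes in the RefSeq annotation of Sscrofa11.1. RNA was sequenced from the ventricular tissue of 3 sham minipigs and 3 minipigs with descending aortic constriction (DAC). All were male Tibetan minipigs of unstated age, the sham minipigs had a thoracotomy without constriction, and the tissue was collected 12 weeks after surgery. The study used DAC to load the left ventricle with pressure over months while the ejection fraction was preserved. The samples are named sham replicates 1 to 3 and DAC replicates 4 to 6, and each is 1 minipig. Which ventricle the sequenced tissue came from is not given in the sources used here.

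FOXO proteins are forkhead transcription factors that leave the nucleus when AKT phosphorylates them downstream of insulin and IGF1. In skeletal muscle and heart, nuclear FOXO factors are known to switch on FBXO32, also called atrogin-1, and TRIM63, also called MuRF1. Both encode E3 ubiquitin ligases, which select the proteins that the proteasome degrades, and both are widely used as transcript markers of muscle atrophy. TRIM55 (MuRF2) and TRIM54 (MuRF3) are close relatives of TRIM63 that sit at the sarcomere and on microtubules. MDM2, STUB1 and NEDD4 are ligases of many tissues, of which STUB1 acts on proteins bound by chaperones and NEDD4 on membrane proteins. The transcript level says nothing on the phosphorylation or the location of FOXO proteins.

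The authors deposited FPKM (fragments per kilobase of transcript, scaled to the mapped fragments), so levels can be set side by side between genes of unlike length. The sum of FPKM was between 281377 and 308771 per sample, and the depth is unknown. The 13 mitochondrially encoded genes held 24.0% to 25.3% of that sum in the sham samples, 27.1% and 27.2% in DAC replicates 6 and 4, and 32.8% in DAC replicate 5. A gene entered the comparison if 3 or more of the 6 samples reached 1 FPKM, and the groups were compared with limma's moderated test on log2(FPKM + 1). The log2 fold change is the difference DAC minus sham on that scale, which understates changes at low FPKM. A differentially expressed gene (DEG) had an unadjusted P under 0.05. Of the 11029 genes tested, 939 were DEGs (8.51%), 358 of them higher and 581 lower in the DAC group. The lower DEGs were 61.9% of all DEGs, beside 52.8% after scaling to the same median, 52.9% after quantile normalization and 44.8% with the mitochondrially encoded genes left out. None of the 11029 passed 0.05 after adjustment, and the smallest adjusted P was 0.106 by the method of Benjamini and Hochberg. All DAC samples lay on the same side of all sham samples in 14.9% of the genes tested.

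None of the 10 genes was a DEG, against the 8.51% of all genes tested. All 10 passed the filter on low values. Their log2 fold changes were between -0.17 and 0.26, with adjusted P between 0.596 and 0.987 from limma. The median of the absolute log2 fold change was 0.11 for the 10 genes and 0.13 for all genes tested. The median log2 fold change was -0.027, beside -0.016 for all genes tested. Of the 10 genes, 4 were above and 6 below 0, beside 5145 above and 5884 below among all genes tested. Taken over the 10 genes, the 95% intervals of the log2 fold change reached from -0.59 to 0.55. All DAC samples lay above all sham samples in 2 of the 10 genes, TRIM54 and NEDD4, beside 6.01% of the genes tested, and in none of the 10 did all lie below, beside 8.91%.

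**Figure D1:**
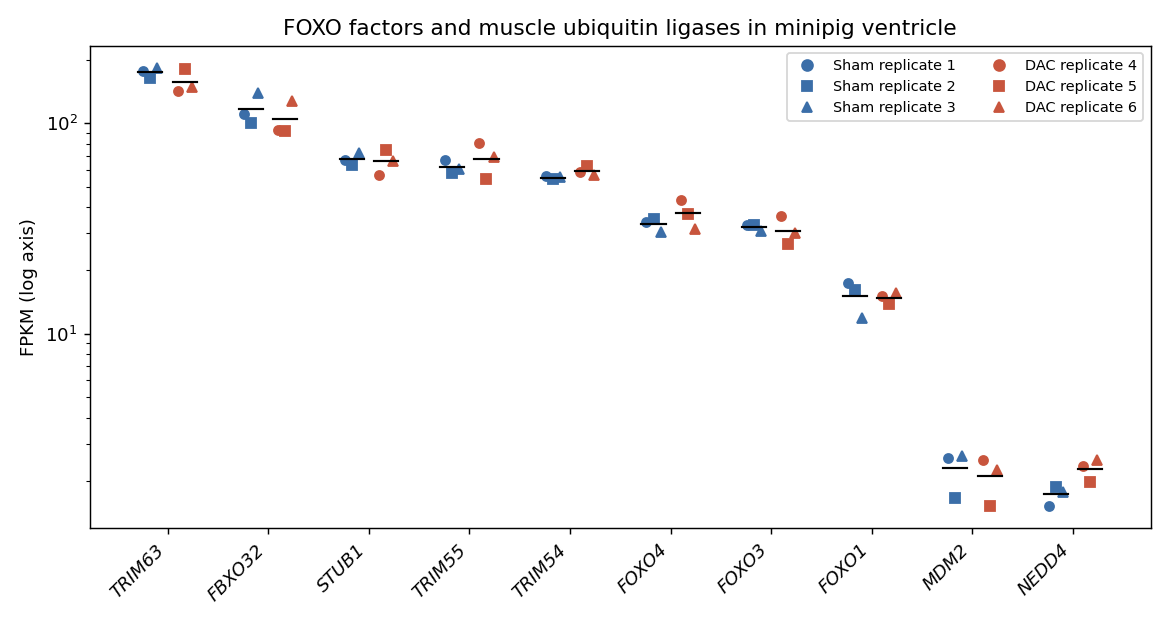
FPKM on a log axis for each of the 10 genes, ordered by mean level, with sham samples in blue, DAC samples in red and the group mean as a black line (n = 3 each). The groups overlap in 8 genes, and all DAC samples lie above all sham samples for TRIM54 and NEDD4.

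Each of the FOXO factors had sham and DAC samples with overlapping levels. FOXO1 (ENSSSCG00000009370, chromosome 11 from 15317124 to 15410473), the member best known for its part in insulin action, was at 17.4, 16.1 and 11.9 FPKM in sham replicates 1, 2 and 3. In DAC replicates 4, 5 and 6 it was at 15.2, 13.8 and 15.5 FPKM, all within the range of the sham samples. The mean was 15.1 ± 2.88 in sham and 14.8 ± 0.909 FPKM in DAC minipigs (SD, n = 3 each), a log2 fold change of -0.012 with a 95% interval from -0.37 to 0.35. Its sign changed to positive when the samples were scaled to the same median (0.011), when they were quantile normalized (0.036) and without the mitochondrially encoded genes (0.030). Leaving out single samples moved it between -0.17, without the low sham replicate 3, and 0.092, without the high sham replicate 1.

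FOXO3 (chromosome 1 from 74628217 to 74760328), a factor that induces autophagy genes in muscle, was at 32.9, 32.7 and 30.8 FPKM in the sham samples. The DAC samples were at 36.1, 26.6 and 30.0 FPKM, spread on both sides of the narrow sham range. The log2 fold change of FOXO3 was -0.065 with a standard error (SE) of 0.13 and a 95% interval from -0.37 to 0.24. Leaving out DAC replicate 4, the highest sample, gave -0.18, and leaving out DAC replicate 5, the lowest, gave 0.034. The SD of FOXO3 was 1.18 FPKM in the sham group and 4.82 FPKM in the DAC group, around means of 32.1 and 30.9 FPKM. FOXO4 (ENSSSCG00000012399, chromosome X from 57132548 to 57140650), a factor held in check by AKT like the others, was at 33.9, 34.9 and 30.4 FPKM in the sham samples. In DAC replicates 4, 5 and 6 it was at 43.2, 37.2 and 31.6 FPKM, of which the first 2 lay above every sham sample and the third did not. Its log2 fold change was 0.16 (95% interval -0.16 to 0.48), and it was 0.051 without DAC replicate 4. The sign stayed positive with each sample left out, up to 0.27 without DAC replicate 6.

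The F-box ligase FBXO32 had a wide spread in both groups. It is the substrate-binding subunit of an SCF ubiquitin ligase and lies on chromosome 4 from 15895351 to 15930940 (ENSSSCG00000005981). The sham samples were at 111, 100.4 and 139 FPKM. The DAC samples were at 93.1, 91.6 and 128 FPKM, so that 2 of them lay below all sham samples and DAC replicate 6 lay above 2 of the sham samples. The mean was 117 ± 19.8 in sham and 104 ± 20.5 FPKM in DAC minipigs (SD, n = 3 each), a ratio of 0.893. FBXO32 had a log2 fold change of -0.17, with an interval from -0.59 to 0.25 that reached furthest below 0 of the 10 genes. It was -0.32 without DAC replicate 6 and -0.036 without sham replicate 3, the highest sample of each group.

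TRIM63 was the most abundant of the 10 genes. This ligase, which marks myosin heavy chain and troponin I for degradation, lies on chromosome 6 from 83492633 to 83507499 (ENSSSCG00000027684). The sham samples were at 177, 164 and 183 FPKM, and DAC replicates 4, 5 and 6 were at 142, 181 and 149 FPKM. DAC replicates 4 and 6 lay below every sham sample, and DAC replicate 5 lay near the top of the sham range. TRIM63 had a log2 fold change of -0.16 (SE 0.12, 95% interval -0.45 to 0.14, limma adjusted P = 0.735). Without DAC replicate 5 it was -0.26, with an unadjusted P of 0.0491 from limma, so this sample decided whether TRIM63 was a DEG. The sign was negative with each sample left out, for TRIM63 as for FBXO32. After quantile normalization the log2 fold change was nearer to 0, at -0.066 for TRIM63 and -0.087 for FBXO32. Without the mitochondrially encoded genes it was -0.11 for TRIM63 and -0.12 for FBXO32. The SD of TRIM63 was 9.89 FPKM around a mean of 174.5 FPKM in the sham group and 20.7 FPKM around 157.3 FPKM in the DAC group.

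The other muscle RING finger ligases had higher means in the DAC group, and neither was a DEG. TRIM54 (ENSSSCG00000039557, chromosome 3 from 111834151 to 111852745), which stabilizes microtubules and binds the sarcomere, was at 56.0, 54.1 and 55.4 FPKM in the sham samples. It was at 58.6, 62.6 and 57.0 FPKM in the DAC samples, all above the sham range by a small margin. The log2 fold change of TRIM54 was 0.10 (95% interval -0.12 to 0.32, limma adjusted P = 0.767). Its SD within the groups, 0.051 on the log2 scale, was lower than that of all but 2.02% of the genes tested, and the moderated test draws such a value up. A test without that moderation did not call TRIM54 either. TRIM55 (ENSSSCG00000006216, chromosome 4 from 68487109 to 68530889), a partner of the titin kinase, was at 66.8, 57.9 and 60.3 FPKM in the sham samples and at 80.0, 54.1 and 68.7 FPKM in the DAC samples. DAC replicate 5 lay below and DAC replicates 4 and 6 above all sham samples, and the log2 fold change was 0.12 (95% interval -0.25 to 0.48). Without DAC replicate 4 it was -0.013, and without DAC replicate 5 it was 0.27. The SD of TRIM55 was 4.59 FPKM in the sham group and 13 FPKM in the DAC group, beside 0.955 and 2.88 FPKM for TRIM54, which lies at a like mean level.

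The ligases of wider distribution included the largest difference, that of NEDD4. NEDD4 (ENSSSCG00000037499, chromosome 1 from 115941937 to 116070317), a HECT ligase for membrane channels and receptors, was at 1.52, 1.88 and 1.78 FPKM in the sham samples. It was at 2.35, 1.97 and 2.51 FPKM in the DAC samples, all above the sham range. The mean was 1.73 ± 0.185 in sham and 2.28 ± 0.277 FPKM in DAC minipigs (SD, n = 3 each), a ratio of 1.32. Its log2 fold change was 0.26 (95% interval -0.016 to 0.55), with an unadjusted P of 0.0610 and an adjusted P of 0.596 from limma. NEDD4 was a DEG after median scaling, with the mitochondrially encoded genes left out, with its variance estimated on its own, and without DAC replicate 5 (0.33). With 0.1 instead of 1 added to the FPKM its log2 fold change was 0.38, and it was not a DEG. With single samples left out of the main fit the estimate stayed between 0.21 and 0.33, always positive. By its unadjusted P, NEDD4 ranked 1120 of the 11029 genes tested, ahead of the other 9 genes.

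STUB1 (ENSSSCG00000008008, chromosome 3 from 41092447 to 41095136), which encodes the cochaperone and U-box ligase CHIP, was at 67.1, 63.3 and 72.0 FPKM in the sham samples. It was at 56.8, 74.4 and 66.4 FPKM in the DAC samples, 1 below, 1 above and 1 within the sham range. The log2 fold change of STUB1 was -0.042 (95% interval -0.34 to 0.26), and it was 0.0032 after quantile normalization and 0.0023 with the mitochondrially encoded genes left out. Without the low DAC replicate 4 it was 0.059, and without the high DAC replicate 5 it was -0.13. MDM2 (ENSSSCG00000000488, chromosome 5 from 33086994 to 33178089), a RING ligase of the nucleus, was at 2.58, 1.67 and 2.63 FPKM in the sham samples and at 2.53, 1.51 and 2.27 FPKM in the DAC samples. Each group held 1 low sample, sham replicate 2 and DAC replicate 5, and the log2 fold change was -0.087 (95% interval -0.52 to 0.34). Leaving out the former gave -0.23 and leaving out the latter 0.058. On the log2 scale, the SD within the groups was 0.25 for MDM2 and FBXO32, the largest of the 10 genes, and lay between 0.051 and 0.21 for the others.

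**Figure D2:**
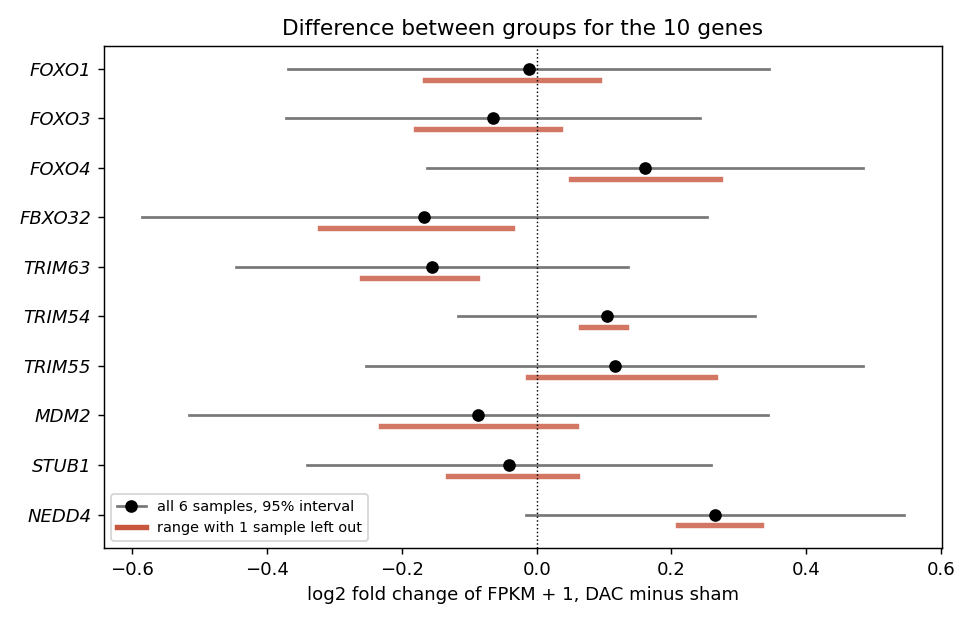
Log2 fold change of FPKM + 1 (DAC minus sham) for the 10 genes, as black points with 95% intervals from limma (grey lines, n = 3 against 3) and the range of the estimate with each sample left out in turn (red bars). All 10 intervals include 0, and they reach from -0.59 for FBXO32 to 0.55 for NEDD4.

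TRIM54, MDM2 and STUB1 each share a stretch of the genome with another gene of the table, and the assignment of reads from such a stretch is not given in the sources used here. STUB1 shares 1171 bases with JMJD8 on the other strand, which was at 17.8 ± 1.76 in sham and 15.9 ± 1.89 FPKM in DAC minipigs (SD, n = 3 each). TRIM54 shares 1513 bases with MPV17, at 1.51 and 1.34 FPKM in the sham and DAC groups. MDM2 contains a gene without a symbol on its own strand (ENSSSCG00000035404), which was a DEG at 2.27 ± 0.381 in sham and 3.17 ± 0.470 FPKM in DAC minipigs (SD, n = 3 each). MDM2 also overlaps CPM on the other strand, at 3.15 ± 1.34 in sham and 1.85 ± 1.02 FPKM in DAC minipigs (SD, n = 3 each).

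In order of mean FPKM over all samples, TRIM63 (166) stood first, followed by FBXO32 (111), STUB1 (66.7), TRIM55 (64.6), TRIM54 (57.3), FOXO4 (35.2), FOXO3 (31.5), FOXO1 (15.0), MDM2 (2.20) and NEDD4 (2.002). TRIM63 exceeded FBXO32 in 6 of 6 samples, and its lowest value of 142 FPKM lay just above the highest FBXO32 value of 139 FPKM. The ranges of FBXO32 and STUB1, of TRIM54 and FOXO4, of FOXO3 and FOXO1 and of FOXO1 and MDM2 were also apart. The ranges overlapped between STUB1 and TRIM55, between TRIM55 and TRIM54, between FOXO4 and FOXO3, and between MDM2 and NEDD4, so those neighbours were not separated. TRIM63 was higher than 98.8% and FBXO32 than 97.9% of all genes of the table, while NEDD4 was higher than 30.2%.

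Within their gene families, the muscle ligases led by level. Of 37 TRIM genes in the table, TRIM63, TRIM55 and TRIM54 had the highest mean FPKM, and TRIM28 (30.3 FPKM), a corepressor of transcription, came next. Of 24 FBXO genes, FBXO32 was second to FBXO40 (166 FPKM), which encodes another striated-muscle F-box protein, and the next, FBXO7, was at 14.5 FPKM. Among 18 genes named FOX with a class letter and number, FOXO4 and FOXO3 ranked first and second, ahead of FOXN3 (29.0 FPKM), and FOXO1 was sixth. These are descriptions of level and were not tested.

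The summed FPKM of the 3 MuRF genes was 291 ± 13.6 in sham and 284 ± 12.01 in DAC minipigs (SD, n = 3 each), so the total differed by less than the spread between samples. Its make-up was less even. TRIM63 held 59.1%, 59.4% and 61.3% of the sum in the sham samples and 50.7%, 60.8% and 54.2% in DAC replicates 4, 5 and 6, with DAC replicate 5 inside the sham range. TRIM54 held 18.7%, 19.6% and 18.6% in the sham samples and 20.9%, 21.0% and 20.8% in the DAC samples, which did not overlap. The ratio of TRIM63 to TRIM54, which a scaling factor for the whole sample leaves as it is, was 3.16, 3.02 and 3.30 in the sham samples. It was 2.43, 2.89 and 2.61 in the DAC samples, all below the sham range. An exact permutation test of 3 minipigs against 3 cannot give a two-sided P under 0.10, which is its value for groups that do not overlap.

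The summed FPKM of FOXO1, FOXO3 and FOXO4 was 80.4 ± 6.27 in sham and 83.1 ± 9.92 in DAC minipigs (SD, n = 3 each). FOXO3 held 39.1%, 39.1% and 42.1% of it in the sham samples and 38.2%, 34.3% and 38.9% in the DAC samples, all slightly lower. FOXO4 held 41.2% ± 0.810 (SD, n = 3) and 44.9% ± 3.57 (SD, n = 3), with DAC replicate 6 inside the sham range. The ratio of FOXO4 to FOXO3 was 1.03, 1.07 and 0.989 in the sham samples and 1.197, 1.40 and 1.05 in the DAC samples. FOXO1 held between 16.3% and 20.7% in the sham samples and between 16.1% and 20.2% in the DAC samples. The ratio of TRIM63 to FBXO32, the common pair of atrophy markers, was 1.51 ± 0.171 in sham and 1.56 ± 0.407 in DAC minipigs (SD, n = 3 each), and it ran from 1.16 in DAC replicate 6 to 1.97 in DAC replicate 5. Of 12 such sums, shares and ratios computed, 3 had groups that did not overlap, beside 14.9% of all genes tested. The sums, shares and ratios were chosen after the values of the 10 genes were seen, and they are not independent. The TRIM54 share and the ratio of TRIM63 to TRIM54 both contain TRIM54, whose own levels did not overlap between the groups.

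**Figure D3:**
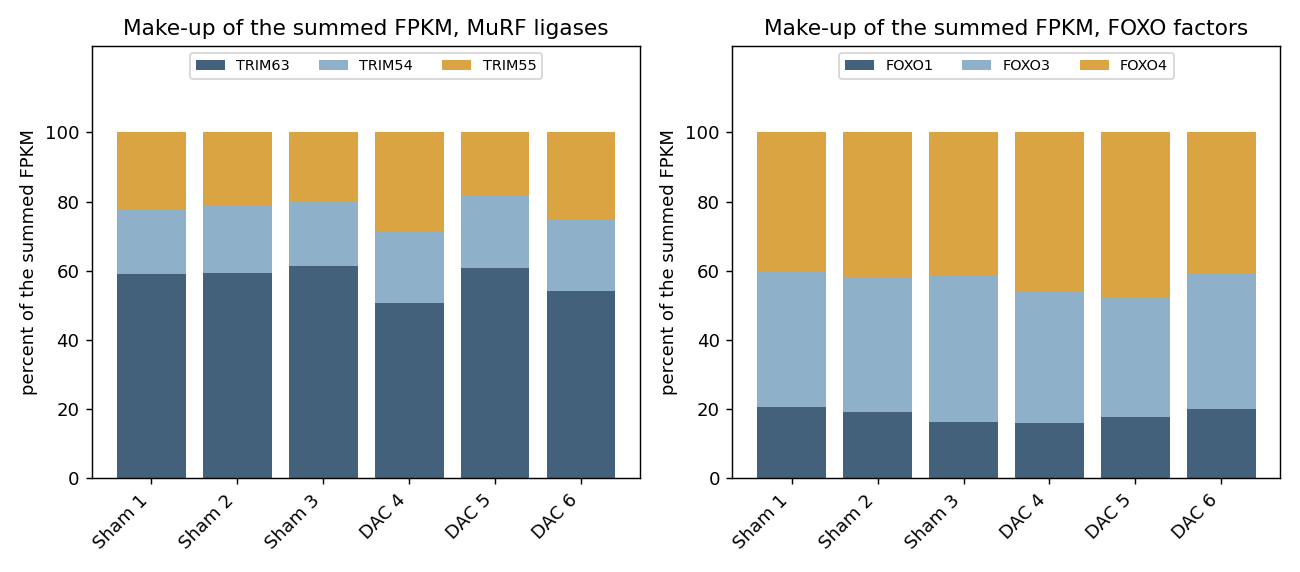
Share of the summed FPKM (percent, stacked bars from 0 to 100) held by each of the 3 MuRF ligases (left) and each of the 3 FOXO factors (right) in every sample. TRIM54 takes 18.6% to 19.6% in the sham samples and 20.8% to 21.0% in the DAC samples, and the share of TRIM63 is lowest in DAC replicates 4 and 6.

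The signaling upstream of FOXO was represented by 18 tested genes of 22 listed, from the insulin and IGF1 receptors to the 14-3-3 proteins that hold phosphorylated FOXO in the cytosol. In this list 1 gene was a higher DEG, beside 3.25% of all genes tested, none was a lower DEG, beside 5.27%, and the median log2 fold change was -0.0063. The DEG was YWHAZ, a 14-3-3 protein, which was at 33.6, 42.2 and 38.02 FPKM in the sham samples and at 49.5, 44.2 and 53.7 FPKM in the DAC samples. All DAC samples were above the sham range, with a log2 fold change of 0.37 (limma adjusted P = 0.548), and YWHAZ remained a DEG in 2 of the 6 fits with 1 sample left out, those without sham replicate 2 (0.44) and DAC replicate 5 (0.44). In the other 4 its log2 fold change was between 0.28 and 0.37. The kinase AKT1 was at 47.2, 30.4 and 53.8 FPKM in the sham samples and at 33.0, 34.6 and 34.1 FPKM in the DAC samples, where sham replicate 2 lay below and the other sham samples above every DAC sample. AKT1 had a log2 fold change of -0.32 (limma adjusted P = 0.676), which was -0.56 with an unadjusted P of 0.00324 without sham replicate 2 and -0.16 without sham replicate 3. AKT2, the isoform tied most to insulin action, had a log2 fold change of -0.062 and was not a DEG.

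Among other genes known as FOXO targets, lower DEGs were the larger group. Of 23 tested genes of 25 listed, 6 (26.1%) were lower DEGs, beside 5.27% of all genes tested, and 1 (4.35%) was a higher DEG, beside 3.25%. In all, 19 of the 23 had a log2 fold change below 0, with a median of -0.18. Among all 11029 genes tested, 5884 were below 0 and the median was -0.016. With the filter raised to 5 FPKM, 19 of 21 genes of the list and 3633 of all 6271 genes were below 0. The median of the list stayed below 0 under every scaling tried, at -0.15 after median scaling, -0.12 after quantile normalization and -0.13 without the mitochondrially encoded genes. The count of DEGs was 1 without sham replicate 1, 4 without sham replicate 3, and 5 to 8 when another sample was left out. Among all 11029 genes tested, it was 600 without sham replicate 1, 631 without sham replicate 3 and 829 to 1029 otherwise, beside 939 with all samples. Many genes of the list also answer to other factors, and the list was written with earlier results of these data known.

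CDKN1A, the cell cycle inhibitor p21, which is in the list around MDM2 too, fell from 21.2, 12.6 and 15.5 FPKM in the sham samples to 10.9, 6.37 and 7.41 FPKM in the DAC samples. The groups did not overlap, the log2 fold change was -0.92 (SE 0.24, limma adjusted P = 0.482), and CDKN1A was a DEG with each sample left out in turn. PINK1, the kinase that marks damaged mitochondria for removal, was at 147 ± 11.4 in sham and 114 ± 11.2 FPKM in DAC minipigs (SD, n = 3 each). GABARAPL1, which encodes a protein of the autophagosome membrane, was at 129 ± 8.95 and 103 ± 7.65 FPKM (SD, n = 3 each). TXNIP, which binds thioredoxin and limits glucose uptake, was at 404 ± 13.2 and 326 ± 21.3 FPKM (SD, n = 3 each). Their log2 fold changes were -0.37, -0.33 and -0.31, and in each of them all DAC samples lay below all sham samples. With 1 sample left out in turn, PINK1 remained a DEG in 5 of 6 fits but not without sham replicate 1 (-0.32). TXNIP missed the threshold without sham replicate 1 (-0.28), sham replicate 3 (-0.31) or DAC replicate 6 (-0.27), and GABARAPL1 without sham replicate 1 (-0.33), sham replicate 2 (-0.28) or DAC replicate 6 (-0.28).

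The remaining DEGs of this list, named after their values were seen, were ULK1, BCL6 and TRIB1. ULK1, the kinase that starts autophagy, was at 22.9 ± 2.69 in sham and 17.3 ± 2.38 FPKM in DAC minipigs (SD, n = 3 each), and it was a DEG in 3 of the 6 fits with 1 sample left out, those without sham replicate 2, DAC replicate 5 or DAC replicate 6. Its log2 fold change was -0.39, and between -0.48 and -0.28 over the 6 fits. BCL6, a transcriptional repressor, was at 16.8 ± 1.87 and 12.95 ± 2.13 FPKM (SD, n = 3 each), and was a DEG in 2 of those fits, without sham replicate 2 or DAC replicate 4. Its log2 fold change was -0.36, and between -0.46 and -0.24 over the 6 fits. TRIB1, a pseudokinase that serves the ligase COP1, was the DEG that rose, from 6.06, 13.6 and 9.45 FPKM to 17.4, 29.7 and 11.6 FPKM. The groups of TRIB1 overlapped, since DAC replicate 6 lay below sham replicate 2, and its log2 fold change was 0.91. It was a DEG without sham replicate 2 (1.16) or DAC replicate 6 (1.21), and not without another sample, down to 0.57 without DAC replicate 5.

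**Figure D4:**
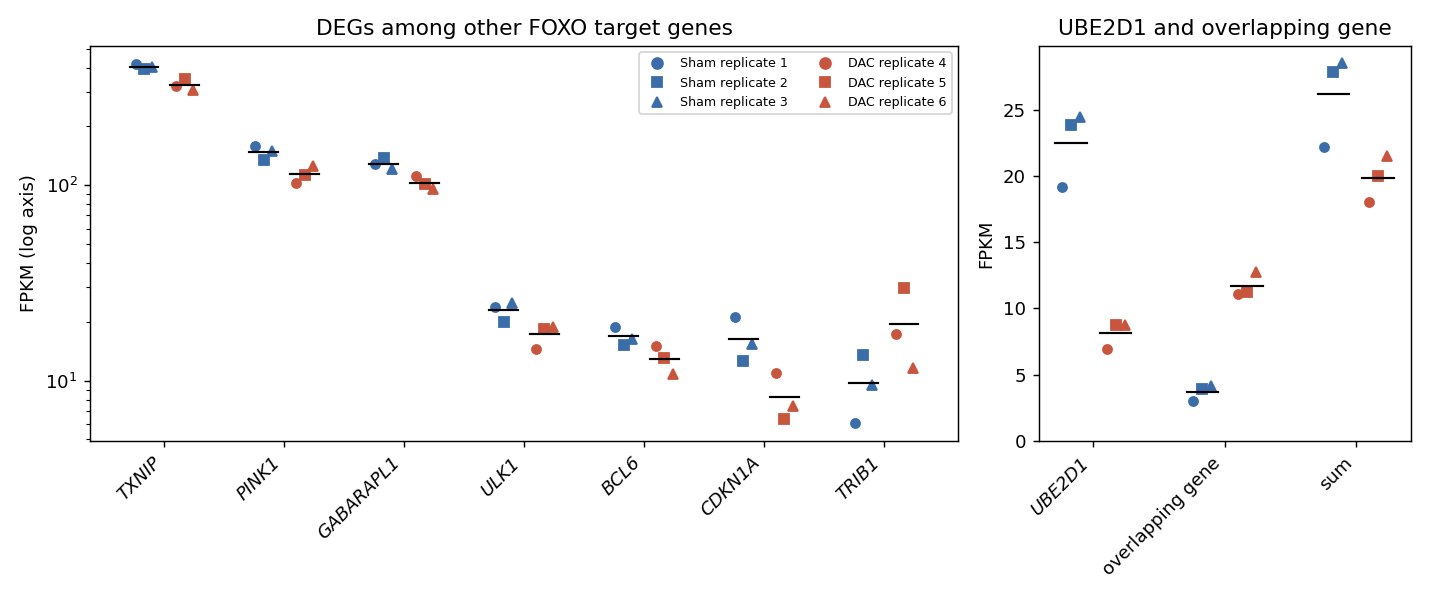
FPKM per sample with group means as black lines: left, on a log axis, the 7 DEGs among other FOXO target genes, and right, on a linear axis from 0, UBE2D1, the gene that overlaps it on the same strand, and their sum. All DAC samples lie below all sham samples in the first 6 genes of the left panel, and UBE2D1 is lower and its overlapping gene higher in every DAC sample.

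Of 26 tested genes for other muscle E3 and E2 enzymes, 1 (3.85%) was a higher DEG, beside 3.25% of all genes tested, and 1 (3.85%) a lower DEG, beside 5.27%. Their median log2 fold change was -0.0036. TRAF6, a ligase that adds chains used in signaling and is known from muscle atrophy, rose from 7.28, 6.90 and 6.89 FPKM in the sham samples to 8.65, 9.99 and 12 FPKM in the DAC samples. The groups did not overlap, the log2 fold change was 0.47 (limma adjusted P = 0.500), and TRAF6 was a DEG with each sample left out in turn.

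UBE2D1, a ubiquitin-conjugating enzyme (E2) that many RING ligases use, MuRF1 among them, had the second smallest P of all genes tested. It was at 19.2, 23.8 and 24.4 FPKM in the sham samples and at 6.96, 8.74 and 8.73 FPKM in the DAC samples, a log2 fold change of -1.36 (SE 0.14, limma adjusted P = 0.124). UBE2D1 lies on chromosome 14 from 92294642 to 92382213 and shares 85875 bases with a gene without a symbol on the same strand (ENSSSCG00000035762, from 92296339 to 92384468). That gene had the smallest P of all genes tested, in the other direction, at 3.00, 3.95 and 4.12 FPKM in the sham samples and 11.09, 11.3 and 12.8 FPKM in the DAC samples (log2 fold change 1.44, limma adjusted P = 0.106). The sum of both was 22.2, 27.8 and 28.5 FPKM in the sham samples and 18.1, 20.01 and 21.5 FPKM in the DAC samples, lower in the DAC group by less than UBE2D1 alone and without overlap. Whether reads moved between the annotated genes was not tested. The related enzymes UBE2D2 and UBE2D3 had log2 fold changes of 0.11 and 0.011 and were not DEGs.

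Of 20 tested substrates and partners of the ligases, 1 (5%) was a lower DEG, beside 5.27% of all genes tested, and none was a higher DEG, beside 3.25%. The median log2 fold change was -0.038. The DEG was SQSTM1, the autophagy receptor p62, which binds MuRF ligases at the titin kinase. SQSTM1 was at 200, 183 and 179 FPKM in the sham samples and 149, 153 and 154 FPKM in the DAC samples, which did not overlap, with a log2 fold change of -0.29. It was not a DEG without sham replicate 1. MYBPC3, cardiac myosin binding protein C and a MuRF1 substrate, was at 1068 ± 94.97 in sham and 1005 ± 78.6 FPKM in DAC minipigs (SD, n = 3 each). Titin was not analysed here.

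In the list around MDM2, 13 genes were tested, of which CDKN1A was the 1 DEG, beside DEGs at 8.51% of all genes tested, and the median log2 fold change was -0.056. MDM4, the close relative of MDM2, was at 2.89 ± 0.628 in sham and 3.12 ± 0.613 FPKM in DAC minipigs (SD, n = 3 each), a difference within the spread. None of 15 chaperones and cochaperones that work with STUB1 was a DEG, beside the same 8.51%, with a median log2 fold change of 0.0034. In that list HSPA8, the constitutive HSP70, and BAG3, its cochaperone in muscle, had log2 fold changes of -0.072 and 0.011. DNAJB6, with the smallest P of the list, was at 17.9 ± 0.838 and 15.2 ± 0.869 FPKM (SD, n = 3 each), and it shares 88727 bases with UBE3C. None of 8 NEDD4 relatives and adaptors was a DEG, beside 8.51% again, so counts of 0 or 1 in these lists are near the background. NEDD4L, the closest relative of NEDD4, was at 16.8, 13.8 and 16.3 FPKM in the sham samples and at 13.9, 10.8 and 13.3 FPKM in the DAC samples, a log2 fold change of -0.29, opposite in sign to that of NEDD4. Its adjusted P was 0.596 from limma, and it was a DEG without sham replicate 2. NEDD4L shares 3825 bases with ALPK2 on the other strand, which was at 29.6 ± 9.15 in sham and 25.9 ± 2.48 FPKM in DAC minipigs (SD, n = 3 each).

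Glucocorticoids are known to raise FBXO32 and TRIM63 in muscle together with FOXO factors, so the receptor and its targets were examined too. Of the 10 genes of that list, 3 (30%) were lower DEGs, beside 5.27% of all genes tested, and none was a higher DEG. All 10 had a log2 fold change below 0 (median -0.33), as had 9 after median scaling or quantile normalization and 8 with the mitochondrially encoded genes left out. Among all genes tested, 5884 of 11029 were below 0, and 5028 of 11014 with the mitochondrially encoded genes left out. DDIT4, which restrains mTOR, fell from 83.1, 90.1 and 78.1 FPKM to 53.01, 46.2 and 45.01 FPKM, with no overlap. FKBP5, a cochaperone of the receptor, fell from 26.9, 31.0 and 31.5 FPKM to 14.1, 18.4 and 9.85 FPKM, and CEBPD, a transcription factor, was a lower DEG at 25.0 ± 2.49 and 18.3 ± 2.92 FPKM (SD, n = 3 each). The log2 fold changes were -0.79, -1.07 and -0.44, and DDIT4 and FKBP5 were DEGs with each sample left out, while CEBPD was not without sham replicate 3 (-0.37) or DAC replicate 6 (-0.34). The receptor gene NR3C1 varied widely within both groups, from 5.75 to 11.7 FPKM in the sham samples and from 6.53 to 11.5 FPKM in the DAC samples. KLF15, a transcription factor induced by glucocorticoids that is in the FOXO list too, was at 21.4 ± 5.54 and 16.7 ± 1.67 FPKM (SD, n = 3 each) and was not a DEG (-0.31). Its log2 fold change was -0.50 without sham replicate 3, where it was a DEG, and -0.14 without sham replicate 2. KLF9 (-0.37, not a DEG) is in the FOXO list too, and SGK1 (-0.020, not a DEG) is in the upstream list too, so the lists share genes. That DDIT4 was lower was known before this list was written, so the count is not independent evidence.

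**Figure D5:**
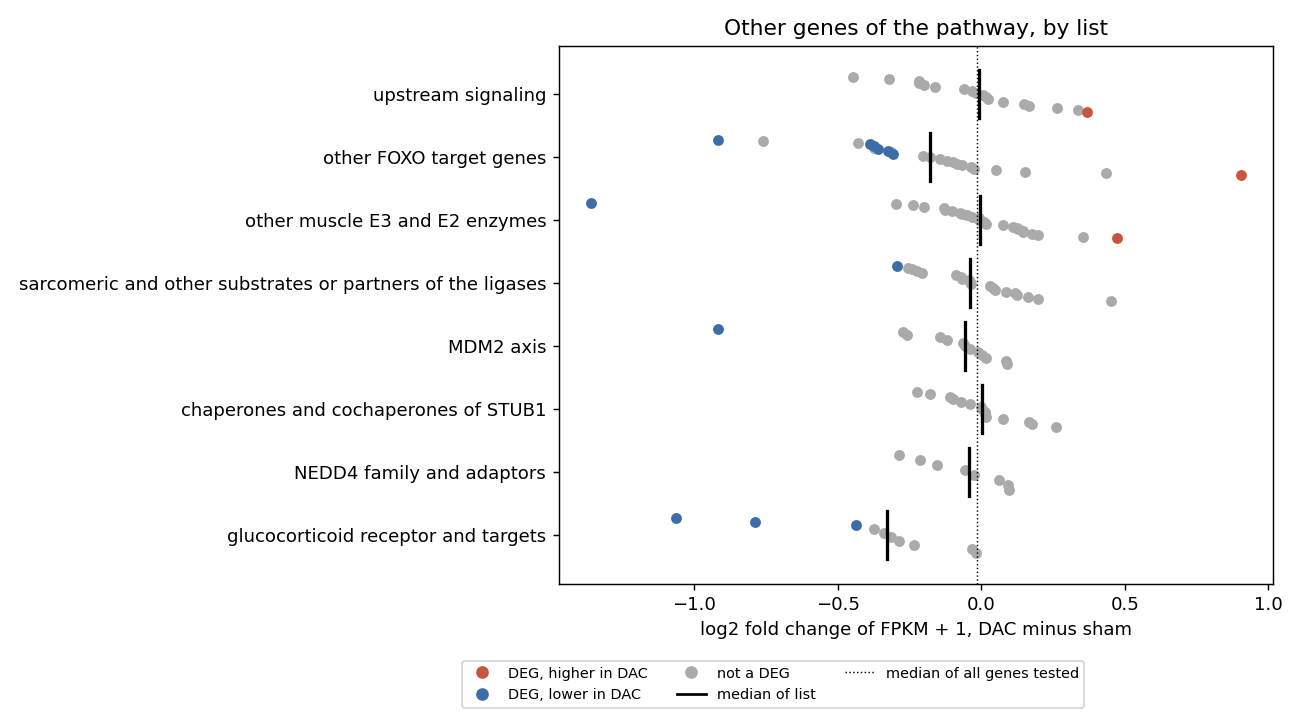
Log2 fold change of FPKM + 1 (DAC minus sham) of each tested gene in 8 lists of pathway genes, with DEGs in colour, list medians as black bars and the median of all genes tested as a dotted line. The FOXO target list (median -0.18) and the glucocorticoid list (median -0.33) lie to the left of the others, whose medians are between -0.056 and 0.0034.

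In these bulk samples, fewer cells of a type and less RNA per cell cannot be told apart. The marker counts below stand beside 3.25% higher and 5.27% lower DEGs among all genes tested. Of 6 cardiomyocyte markers, 1 was a lower DEG (RYR2) and none was a higher DEG, and their summed level was 8048 to 9214 FPKM in the sham samples and 7841 to 10240 FPKM in the DAC samples. Of 6 fibroblast markers, 4 were higher DEGs (LUM, COL1A1, COL1A2 and POSTN), with a summed level of 318 to 366 FPKM in the sham samples and 446 to 517 FPKM in the DAC samples. For endothelial cells 2 of 6 markers were higher and 1 a lower DEG, for smooth muscle cells 1 of 4 was a higher DEG, and for leukocytes 1 of 4 tested was a lower DEG, with summed levels that overlapped between the groups in each. No skeletal muscle or adipocyte marker passed the filter on low values, and MYBPC2 and ADIPOQ, those in the table, were at means of 0.638 and 0.0918 FPKM in the sham group and 0.698 and 0.279 FPKM in the DAC group. The part of cell makeup in the differences of the ligases and FOXO targets was not tested.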

How the data were processed

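The authors deposited 1 table of FPKM for 6 samples of ventricular tissue, 3 sham and 3 DAC minipigs. Per the labels, the NEBNext Ultra RNA kit gave the libraries, and the submitters' processing notes name HISAT2 and the pig genome susScr11. The program that counted reads, its use of strand and its handling of overlapping genes are not given in the sources used here. Each gene reached at least 0.5 FPKM in 1 sample. Low values did not fall on steps of whole reads, since at most 6 of at least 6520 genes under 5 FPKM had the same log2 ratio (to 4 decimals) in a pair of samples, so no count test was run. FPKM sums differed between samples, and no further scaling was applied. Of 2440 genes without a symbol, 520 took one from their Ensembl identifier.

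Genes with 1 FPKM or more in 3 or more samples (11029) were fitted in limma 3.58.1 (R 4.3.3) on log2(FPKM + 1) with a variance trend, no covariates and two-sided P, adjusted over all genes by Benjamini-Hochberg. DEGs followed the study's rule of an unadjusted P. In a simulation of this comparison over 11029 genes, the fit called 194 of 200 genes with a log2 change of 1, and 556 of the others. Smaller changes were not simulated. The largest absolute log2 fold change of the FOXO factors and muscle ubiquitin ligases examined here was 0.26. The simulation does not show how often a change of that size is called. P-values cover the spread between minipigs, of which the study gives 3 per group for the sequencing. Figures were drawn with matplotlib 3.10.9 in Python 3.11.15.

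The 10 genes and the pathway lists were chosen with earlier results of these data known. Named beside them were AKT1, AKT2, MDM4, NEDD4L, HSPA8, BAG3, MYBPC3, NR3C1, KLF15 and DDIT4, up to 4 DEGs with the smallest P of each list, and, in a list with none, the gene with the smallest P. Other genes were named after their values were seen. Listed genes absent from the count of tested genes were below the filter or not used here, and 1 gene of the lists is not reported here.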

Additional observations from a re-analysis of the deposited data

How the results depend on the processing

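The fit was repeated with no filter, with at least 5 FPKM, with a pseudocount of 0.1, after median scaling, after quantile normalization, with the mitochondrially encoded genes left out, with the variance of each gene on its own, and with each sample left out. At 5 FPKM, 579 of 6271 genes were DEGs, and MDM2 and NEDD4 were not tested. Of 128 values of the 10 genes under these settings, 110 kept their direction and side of the threshold, 5 passed it and 13 changed sign. Of 311 values of the 24 other named genes, 264 kept both, 34 fell short of the threshold, 4 passed it and 9 changed sign. FOXO1 moved to 0.011 after median scaling, 0.036 after quantile normalization and 0.030 without the mitochondrially encoded genes. STUB1 moved to 0.0032 and 0.0023 under the latter settings, and NR3C1 to 0.0066 under the last. The count of DEGs among the 10 genes was 1, NEDD4, after median scaling (0.28), without the mitochondrially encoded genes (0.29) and with the variance of each gene on its own (0.26). Among all genes tested, DEGs numbered 908 of 11029, 910 of 11014 and 889 of 11029 under these settings, and 887 of 11029 after quantile normalization. The FOXO target list had 4 DEGs after quantile normalization and 4 with the variance of each gene on its own, where the substrate list had 2 and the chaperone list 1. The cause of these shifts was not tested.

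With each sample left out, DEGs numbered 600 to 1029 among all genes and 0 to 2 among the 10 genes, where the 2 were NEDD4 and TRIM63 without DAC replicate 5. The range was 0 to 2 for upstream signaling, 1 to 8 for FOXO targets, 2 to 4 for other E3 and E2 enzymes, 0 to 3 for substrates, 1 to 2 for the list around MDM2, 0 to 2 for chaperones, 0 to 1 for NEDD4 relatives and 2 to 5 for glucocorticoid targets. The log2 fold change ranged from -0.17 to 0.092 for FOXO1, from -0.18 to 0.034 for FOXO3, from -0.26 to -0.088 for TRIM63, from -0.013 to 0.27 for TRIM55, from -0.23 to 0.058 for MDM2, from -0.13 to 0.059 for STUB1 and from 0.21 to 0.33 for NEDD4. It also changed sign for MDM4 (-0.054 to 0.21), HSPA8 (-0.17 to 0.074), BAG3 (-0.076 to 0.13) and NR3C1 (-0.31 to 0.15). No paired analysis was run, because the study assigned different minipigs at random to the sham and DAC groups. With 3 minipigs a group and unknown depth, the errors of the low genes MDM2 and NEDD4 cannot be split into counting and animal spread.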
